A study of Mus musculus with 6 samples.

Results

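The signal recognition particle (SRP) proteins are described here as their mRNAs were measured in mouse testis, in RNA that came down with MVH, a DEAD-box helicase of germ cells, and in control RNA. The members were all probes whose platform gene symbol was Srp9, Srp14, Srp19, Srp68, Srp72 or Srp54, which is now written Srp54a. Each of the 6 genes had 1 probe, so that the set holds 6 of the 23473 probes in the table. The genes lie on different chromosomes, Srp9 on chromosome 1, Srp14 on 2, Srp19 on 18, Srp68 on 11, Srp72 on 5 and Srp54a on 12. The set was proposed with earlier results of these data in view, from the high value of Srp54a in the MVH precipitate relative to the IgG precipitate. Values of that comparison are therefore given as a description of the members, and its calls only as a count beside that of all probes.

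The arrays carried RNA from testis of C57/BL6 mice, whose age the labels do not give, and all groups came from the same strain and tissue. RNA precipitated with an antibody against MVH (also called DDX4) was hybridised to 2 arrays, RNA precipitated with normal rabbit IgG to 2 arrays, and total RNA, for which no antibody was used and which is labelled WCE, to 2 arrays. In RNA immunoprecipitation a protein is drawn from a lysate with its antibody and the bound RNA is kept, and the IgG precipitate measures what comes down with beads and antibody alone. The labels do not say whether the arrays of a group came from separate animals, and a p-value here reflects only how far these arrays spread, which may be technical.

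The SRP is a complex of a small RNA, the 7SL RNA, and the proteins encoded by these genes. It binds the signal sequence of a secretory or membrane protein as it leaves the ribosome, slows translation, and hands the ribosome to the SRP receptor at the endoplasmic reticulum, where the chain enters the Sec61 channel. SRP9 and SRP14 form a dimer on the Alu domain of the RNA, which slows elongation. SRP19, SRP68, SRP72 and SRP54 sit on the other domain, the S domain, where the GTPase SRP54 binds the signal sequence and the receptor. Spermatids make much secretory and membrane protein for the acrosome and the sperm surface.

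Mouse has 3 annotated Srp54 genes on chromosome 12, Srp54a, Srp54b and Srp54c, and the platform named its probe only Srp54. Copies of a gene can be read by 1 probe. The RefSeq windows (build GRCm38.p6, plus strand) of the 250 bases before the start of Srp54a and of Srp54c are shown. No window of Srp54b is shown. The Srp54a window is chr12:55080246-55080495 and that of Srp54c is chr12:55230127-55230376, and capitals mark the longest run that both windows share, which is 153 bases.
Srp54a: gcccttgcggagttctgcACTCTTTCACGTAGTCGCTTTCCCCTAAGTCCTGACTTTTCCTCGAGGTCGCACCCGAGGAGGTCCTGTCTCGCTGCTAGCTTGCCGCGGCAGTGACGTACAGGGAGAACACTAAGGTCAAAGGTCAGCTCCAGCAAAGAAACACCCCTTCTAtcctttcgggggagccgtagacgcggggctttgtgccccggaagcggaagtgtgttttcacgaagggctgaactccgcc
Srp54c: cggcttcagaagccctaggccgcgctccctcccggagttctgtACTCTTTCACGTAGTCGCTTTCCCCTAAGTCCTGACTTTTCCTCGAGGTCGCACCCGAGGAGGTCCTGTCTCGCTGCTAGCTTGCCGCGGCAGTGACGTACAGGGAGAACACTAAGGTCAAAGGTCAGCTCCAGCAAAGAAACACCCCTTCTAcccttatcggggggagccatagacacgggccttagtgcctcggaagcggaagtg
The run spans bases 19 to 171 of the Srp54a window and bases 44 to 196 of that of Srp54c. These windows lie before the start of each gene, so they do not show how alike the transcripts are. The sequence of the probe itself was not used here, so which of the copies the Srp54 probe reads, alone or together, was not tested. The name Srp54a below stands for that probe.

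The authors deposited Cy5 intensities on a linear scale. They are given as scaled intensities, for which each array was centred on its median and set to a common median of 30. After amplification of the RNA and centring, a value tells how a probe stood relative to the others on its array, and not how much RNA was recovered. Between 22090 and 22965 probes were listed on an array, and the number of arrays limits the precision. Over all probes, the log2 difference between the 2 arrays of a group had an SD of 0.48 with MVH, 0.61 with IgG and 0.46 in total RNA. All 6 member probes were listed on all 6 arrays. Fewer cells of a type and less RNA per cell cannot be told apart in such bulk samples.

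Srp54a stood apart from the other members: its level with MVH was several-fold above that with IgG and that of total RNA, while the group means of each of the other 5 mRNAs lay within 1.79-fold of one another for MVH and IgG. Differences below are on the log2 scale, MVH minus IgG, MVH minus total RNA or IgG minus total RNA, with the standard error (SE) of a linear model fitted across all probes and arrays (limma). The 3 comparisons share arrays and are not independent of one another.

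Srp54a, the signal-binding GTPase subunit, had scaled intensities of 262.5 and 495.9 on the MVH arrays, 54.8 and 24.8 on the IgG arrays, and 66.8 and 67.0 on the total RNA arrays. Both MVH arrays were above all 4 control arrays, both IgG arrays were below both total RNA arrays, and no groups overlapped. Of the 21241 probes listed on all 6 arrays, 11.4% likewise had both MVH arrays above all controls. The lower MVH array was 3.92-fold above the higher total RNA array and 4.79-fold above the higher IgG array. The ratio of MVH to IgG was 4.79 between the arrays numbered 1 and 20.0 between those numbered 2, so the direction was shared and the size was not.

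The difference of Srp54a was 3.29 ± 0.43 for MVH minus IgG (SE, n = 2 per group), a 9.79-fold higher level with MVH. It was 2.43 ± 0.43 for MVH minus total RNA, a 5.39-fold higher level, and -0.86 ± 0.43 for IgG minus total RNA. The difference from IgG was thus made up of a high value with MVH and, in smaller part, a low value with IgG. The spread within the precipitates was wide for this probe: the 2 arrays differed 1.89-fold with MVH and 2.21-fold with IgG, but 1.00-fold in total RNA. Without the second IgG array the difference of IgG minus total RNA was -0.29, and without the first it was -1.43, so its size rested on which IgG array was kept.

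Since the gene was chosen for its value on the MVH arrays, a high value there was favoured by that choice in every setting. The MVH minus total RNA difference of Srp54a, which shares those arrays, did not pass the threshold of 0.05 (limma adjusted p = 0.158 over all probes, unadjusted 95% interval 1.45 to 3.42). It passed with the dimmest 25% of probes left out (adjusted p = 0.0163), with an offset of 4 added before log2 (0.0289) and with a variance trend (0.0134), and lay between 0.067 and 0.934 in the other settings. The IgG minus total RNA difference did not pass either (limma adjusted p = 0.34; 95% interval -1.84 to 0.13). It shares the IgG arrays with the comparison from which the gene was chosen, so a low value with IgG was favoured by that choice.

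**Figure D1:**
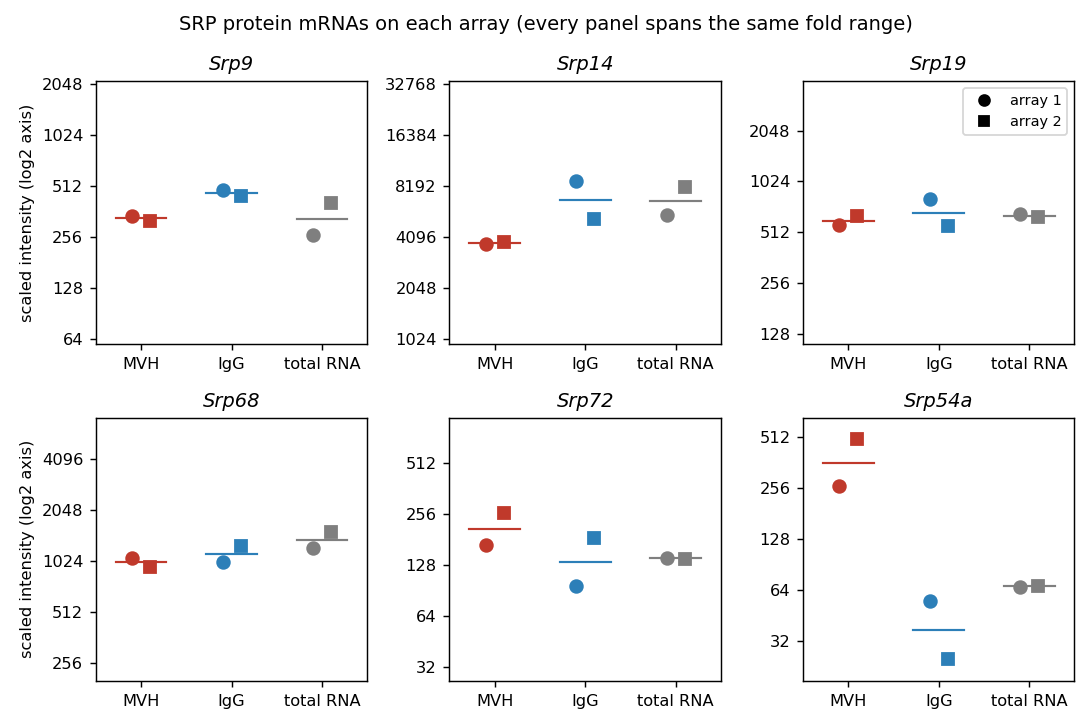
Scaled intensity of the 6 SRP protein mRNAs on each array, on a log2 axis that spans the same fold range in every panel. Circles are arrays numbered 1, squares those numbered 2, and bars the mean of log2 values, with the MVH precipitate left, the IgG precipitate in the middle and total RNA right. Srp54a lies at 262.5 and 495.9 in the MVH precipitates and at 67.0 or below on the other 4 arrays.

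The Alu-domain pair went the other way in the comparison of the precipitates, as Srp19 and Srp68 did by smaller differences. Srp14 had scaled intensities of 3696 and 3833 on the MVH arrays, 8776 and 5197 on the IgG arrays, and 5546 and 8098 on the total RNA arrays. Both MVH arrays lay below all 4 control arrays, and the IgG and total RNA arrays overlapped. The difference of Srp14 was -0.84 ± 0.34 for MVH minus IgG and -0.83 ± 0.34 for MVH minus total RNA (SE, n = 2 per group). The second did not pass (limma adjusted p = 0.513; unadjusted 95% interval -1.60 to -0.06), and IgG minus total RNA was 0.01 ± 0.34 (adjusted p = 0.99). Srp14 kept a negative difference for MVH minus IgG, between -1.22 and -0.47, in all 16 alternative settings.

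Srp9, the partner of Srp14 in the dimer, had scaled intensities of 341.1 and 319.4 on the MVH arrays, 484.6 and 445.7 on the IgG arrays, and 262.9 and 407.6 on the total RNA arrays. The MVH arrays lay below the IgG arrays and within the range of total RNA, and the IgG arrays lay above total RNA. The difference of Srp9 was -0.49 ± 0.30 for MVH minus IgG, 0.01 ± 0.30 for MVH minus total RNA (limma adjusted p = 0.998) and 0.51 ± 0.30 for IgG minus total RNA (adjusted p = 0.417; 95% interval -0.17 to 1.19). Without the first total RNA array, Srp9 stood at -0.30 for MVH minus total RNA, and without the second at 0.33, so no direction could be read from that comparison. Both dimer partners thus had lower values on each MVH array than on each IgG array, as did 23.8% of all probes tested. That separation rested on the centring: as deposited, the second IgG array read 309 for Srp9 and 3603 for Srp14, below the MVH arrays, whose deposited values equal the scaled ones. The deposited 309 also lay within the range of total RNA, so the separation of IgG from total RNA for Srp9 rested on the centring too.

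After centring, no mRNA of the S-domain proteins other than SRP54 had MVH and IgG arrays apart. As deposited, those of Srp72 were apart. Srp19, whose protein joins the RNA early in assembly and prepares it for SRP54, had scaled intensities of 565.7 and 636.9 on the MVH arrays, 802.0 and 559.2 on the IgG arrays, and 653.7 and 630.2 on the total RNA arrays. All groups overlapped. The difference of Srp19 was -0.16 ± 0.29 for MVH minus IgG, -0.10 ± 0.29 for MVH minus total RNA (limma adjusted p = 0.988; 95% interval -0.75 to 0.56) and 0.06 ± 0.29 for IgG minus total RNA (adjusted p = 0.932). Its small difference between the precipitates turned to 0.10 without the first IgG array and to 0.11 with no centring.

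Srp68, which forms a dimer with Srp72 on the S domain, had scaled intensities of 1065 and 940.4 on the MVH arrays, 1002 and 1259 on the IgG arrays, and 1214 and 1521 on the total RNA arrays. The MVH arrays lay below total RNA and overlapped with IgG. The difference of Srp68 was -0.17 ± 0.28 for MVH minus IgG, -0.44 ± 0.28 for MVH minus total RNA (limma adjusted p = 0.751; 95% interval -1.08 to 0.20) and -0.28 ± 0.28 for IgG minus total RNA (adjusted p = 0.648). With no centring the first of these was 0.10.

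Srp72 was the other member with a positive difference for MVH minus IgG. It had scaled intensities of 168.4 and 262.0 on the MVH arrays, 96.2 and 184.0 on the IgG arrays, and 141.9 and 139.2 on the total RNA arrays. The MVH arrays lay above total RNA, but the second IgG array lay above the first MVH array (below it as deposited, at 127.6). The difference of Srp72 was 0.66 ± 0.37 for MVH minus IgG and 0.58 ± 0.37 for MVH minus total RNA (limma adjusted p = 0.753; 95% interval -0.27 to 1.43), and -0.08 ± 0.37 for IgG minus total RNA (adjusted p = 0.932). The size for MVH minus IgG was 0.19 without the first IgG array and 1.13 without the second. As with Srp54a, the arrays of both precipitates were further from each other (1.56-fold with MVH and 1.91-fold with IgG) than those of total RNA (1.02-fold), although the difference from Srp68, its partner, was not tested.

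As a description, 1 of the 6 member probes, Srp54a, was past the threshold for MVH minus IgG, where limma called 7.97% of the 21574 probes tested. Since the set was chosen from this comparison, nothing is read from that count. Without the second MVH array, without either total RNA array or with only the 4 arrays of the precipitates in the fit, limma called 0 of all probes there, and so 0 members, while the difference of Srp54a was 2.72 or more in every setting. Total RNA takes part there only by adding to the estimate of the error that all groups share. Groups did not overlap for 3 of the 6 members, with Srp54a higher and Srp9 and Srp14 lower, against 53.7% of all probes, 29.9% higher and 23.8% lower.

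For MVH minus total RNA, limma called 0 of the 6 members and 0.0138% of 21793 probes. Groups did not overlap for 4 members, with Srp54a and Srp72 higher and Srp14 and Srp68 lower, against 18.7% of all probes higher and 21.6% lower. At an unadjusted p under 0.05, 2 of the 6 members (Srp54a and Srp14) and 1947 of all probes would have counted. For IgG minus total RNA, limma called 0 of the 6 members and 0.00934% of 21413 probes, with 0 members and 3900 probes at an unadjusted p under 0.05. Groups did not overlap there for Srp9, which was higher only after centring, and Srp54a, which was lower, against 20.0% of all probes higher and 29.6% lower. The median difference of the 6 members was -0.16 for MVH minus IgG, against 0.07 over all probes. It was -0.04 for MVH minus total RNA, against -0.02, and -0.03 for IgG minus total RNA, against -0.10.

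**Figure D2:**
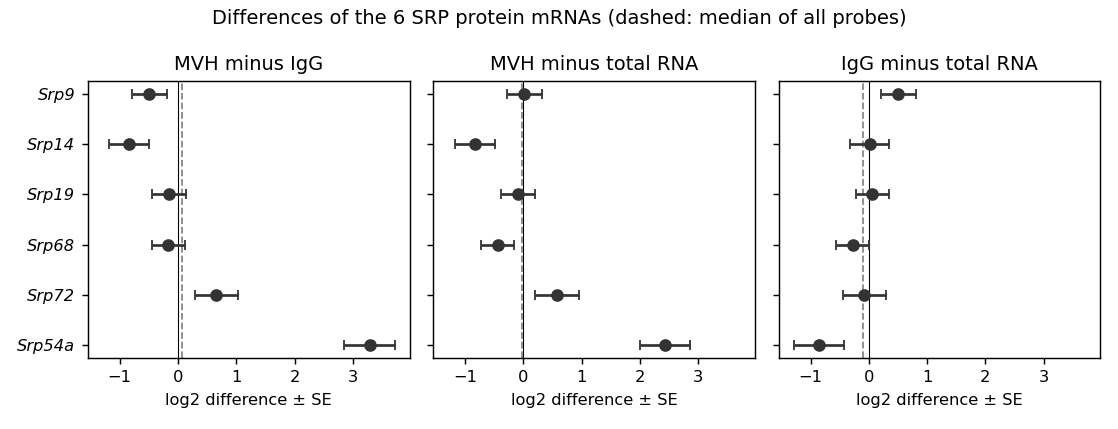
Log2 differences of the 6 SRP protein mRNAs in the 3 comparisons, with bars for the SE of the linear model (n = 2 arrays per group). The dashed line is the median of all probes, which was 0.07, -0.02 and -0.10 from left to right. Srp54a lies at 3.29, 2.43 and -0.86, and the other members between -0.84 and 0.66.

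The genes with the pattern most like that of Srp54a were sought over the 6 arrays, by the root mean square distance between log2 deviations from each gene's own mean. The nearest named genes were Adss (distance 0.26), Adam5 (0.31), Mlf1 (0.32), Taf1d (0.40) and Golm2 (0.40). Adss encodes adenylosuccinate synthase of purine synthesis, and Adam5 belongs to the ADAM family of membrane proteins. Adss had scaled intensities of 114.5 and 240.0 on the MVH arrays, 37.9 and 14.7 on the IgG arrays, and 45.6 and 32.3 on the total RNA arrays. Mlf1 had scaled intensities of 4569 and 8866 on the MVH arrays, 1175 and 591 on the IgG arrays, and 1850 and 2143 on the total RNA arrays. All 5 had the second MVH array highest and the second IgG array lowest, as Srp54a did. They were picked for likeness over these same arrays, so this shared order is not a separate result. Of the SRP members, Srp72 was the least far from Srp54a (distance 1.26), with 3532 of 21240 probes as near or nearer, and Srp14 the farthest (1.81). These distances are a description over 6 arrays in 3 groups.

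**Figure D3:**
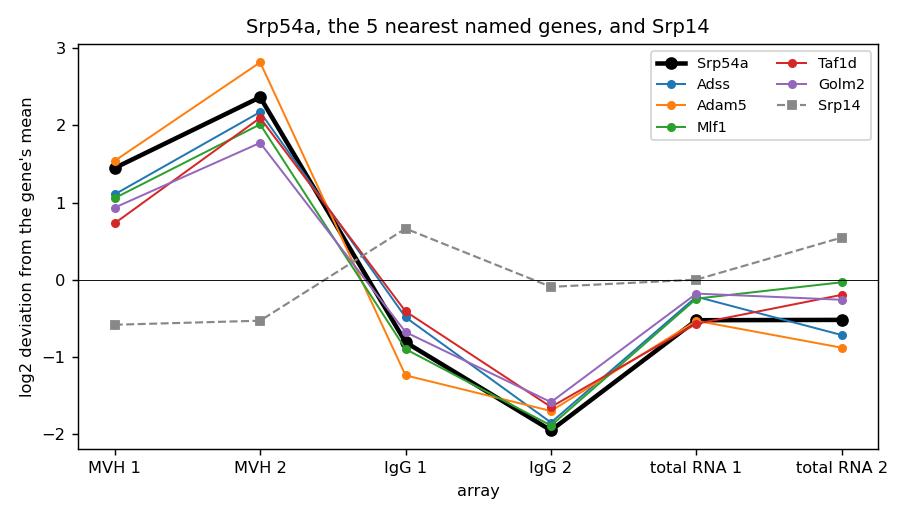
Log2 deviation of Srp54a, of the 5 named genes nearest to it and of Srp14 from each gene's own mean, over the 6 arrays. Lines join the values of 1 gene and carry no order in time. The 5 genes follow Srp54a at distances of 0.26 to 0.40, and Srp14 lies at 1.81.

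The other steps of entry into the endoplasmic reticulum were looked at through 53 genes listed by role, of which 50 had a probe and gave 51 probes. For MVH minus IgG, 3 of the 51 probes were higher and 4 lower by limma, against 3.82% higher and 4.15% lower over all probes, and the median was 0.10 against 0.07. Spcs1, a subunit of the signal peptidase, had scaled intensities of 4873 and 5605 on the MVH arrays, 1887 and 1876 on the IgG arrays, and 2383 and 2711 on the total RNA arrays. It was higher with MVH than with IgG by 1.47 ± 0.26 (limma adjusted p = 0.0214). Hm13, the signal peptide peptidase that clears cut signal peptides from the membrane, was higher by 1.22 (adjusted p = 0.0353). Its probe was dim, at 68.7 and 59.5 with MVH and 28.2 and 26.7 with IgG. Hm13 was listed with the signal peptidase subunits, so that 2 of the 6 probes of that list were called higher and 0 lower. Of the 6 differences, 4 were positive and 2 negative. Stt3b, a catalytic subunit of oligosaccharyltransferase, was higher by 1.32 at 1 probe (adjusted p = 0.0358) and by 0.32 at its other probe, which did not pass (0.534).

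The 4 lower probes lay in the list of the Sec61 channel with its accessory proteins (translocon) and in that named SRP-independent targeting. Use of the SRP by the proteins of the second list was not measured. Sec61b, a subunit of the Sec61 channel, had scaled intensities of 793.9 and 833.9 on the MVH arrays, 1998 and 1767 on the IgG arrays, and 1618 and 1921 on the total RNA arrays. Its difference of MVH minus IgG was -1.21 ± 0.27 (limma adjusted p = 0.0323). Emc9 (-1.93, adjusted p = 0.0166) and Emc10 (-1.40, 0.0239), of the complex that inserts membrane proteins, and Tmem208 (-1.47, 0.0304), of the SND route, were lower too. Emc9 (18.6 and 20.7) and Tmem208 (31.1 and 37.7) were dim on the MVH arrays. For Emc9, Emc10 and Tmem208, after centring, the IgG arrays lay above total RNA and the MVH arrays below it. By role, the lower calls were 1 of 11 probes of the translocon list and 3 of 17 probes of the list named SRP-independent targeting. No probe of either list was called higher. Of the 51 probes, limma called 0 for MVH minus total RNA, against 0.0138% of all probes, and 0 for IgG minus total RNA, against 0.00934%. At an unadjusted p under 0.05 these were 14 of the 51, against 1947 of 21793 probes, and 14 of the 51, against 3900 of 21413. For MVH minus IgG, 0 of the 51 were called without the second MVH array, without either total RNA array or with only the 4 arrays compared, where 0 of all probes were called too. There were 0 without the first MVH array (0.506% of all probes), 4 without the second IgG array (5.96%) and 2 with no centring (3.81%).

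The SRP receptor genes, whose products receive the SRP at the membrane, did not pass in any comparison. Srpra differed by 0.02 ± 0.32 for MVH minus IgG (limma adjusted p = 0.977) and by 0.02 ± 0.32 for MVH minus total RNA (0.998). Srprb differed by -0.14 ± 0.27 (adjusted p = 0.806) and by -0.36 ± 0.27 (0.827). The probe of Srprb was dim, with scaled intensities of 13.8 and 11.6 on the MVH arrays, 14.1 and 13.7 on the IgG arrays, and 18.0 and 14.6 on the total RNA arrays.

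**Figure D4:**
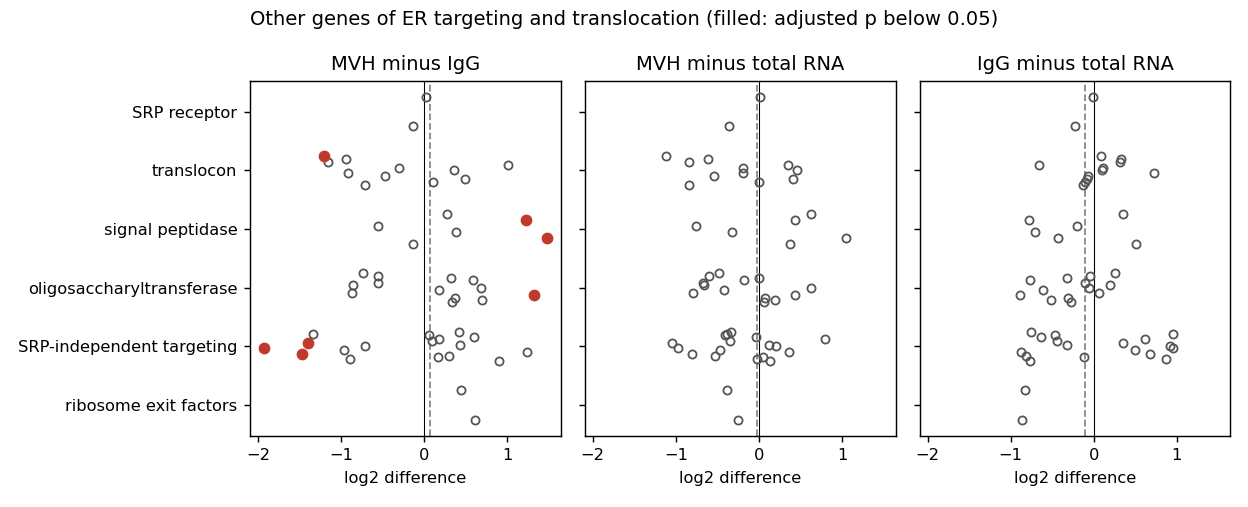
Log2 differences of 51 probes of the other genes of targeting and translocation into the endoplasmic reticulum (ER), by role, in the 3 comparisons. Each point is 1 probe, filled where limma's adjusted p was below 0.05, and the dashed line is the median of all probes. The 7 filled points, 3 higher and 4 lower, are all in the comparison of MVH with IgG.

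Cell type markers were read for MVH minus IgG, where limma called 3.82% of all probes higher and 4.15% lower. Of 7 Leydig cell markers, 5 had a probe, and 4 of these 5 were lower with MVH than with IgG and 0 higher. Their summed scaled intensity was 490 to 509 in the MVH precipitates, 1884 to 2997 in the IgG precipitates and 658 to 1129 in total RNA. Of 5 peritubular and vascular markers, 2 of the 3 tested were lower and 0 higher, with sums of 331 to 537 with MVH, 1441 to 3129 with IgG and 398 to 493 in total RNA, and 2 were blank on an IgG array. The other somatic lists held no call, with 0 of 7 Sertoli cell probes (median 0.04) and 0 of 5 macrophage and blood probes (median 0.29). The Sertoli cell sums were nevertheless lower with MVH, at 3380 to 3478, against 5368 to 6030 with IgG and 4520 to 4803 in total RNA. Clu carried these sums (-0.75 ± 0.26, limma adjusted p = 0.113), while 5 of the 7 Sertoli cell differences were positive. Those 5, Sox9, Amh, Fshr, Gata4 and Cldn11, had probes near or below the common median of 30. Amh, the largest at 0.55, read 11.8 and 10.3 with MVH and 8.2 and 6.9 with IgG. Macrophage and blood probes were dim too, such as Adgre1 at 7.3 and 9.8 with MVH and 4.7 and 5.0 with IgG. The signs and missing calls of such dim probes say little about these cell types.

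Among germ cell markers, 1 of 8 spermatid, 1 of 6 spermatocyte and 1 of the 3 tested spermatogonial probes were higher with MVH than with IgG, and 0 were lower. These were Pgk2, a glycolytic enzyme gene of spermatids (2.13, limma adjusted p = 0.0177), Sycp3 of the synaptonemal complex (1.79, 0.0349) and Dmrtb1 of spermatogonia (1.53, 0.0266). The 8 spermatid markers were listed on all arrays, and 6 of their 8 differences were positive. Their summed scaled intensity was 231670 to 314602 with MVH, 215953 to 293753 with IgG and 260704 to 283486 in total RNA, but these sums were carried by Prm1, Prm2 and Tnp1, which read at or near the top of the scale and could hide a difference. The part of these cell types in the values of Srp54a, Srp9 and Srp14 was not tested.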

How the data were processed

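Following the labels' protocols, the authors amplified the RNA to amino allyl aRNA, coupled it to Cy5 and hybridised each sample to its own array. Part of the protocol text, on tumor tissue and microRNA labelling, concerns other samples and was set aside. They deposited 1 intensity per probe and array on a linear scale. How the arrays were scanned, background-corrected and scaled, and why some cells are blank, is not given in the sources used here. Array medians of the deposited intensity were 30, except 20.8 on the second IgG array. Gene names came from the platform annotation, with symbols updated through RefSeq (GRCm38.p6) synonyms.

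Intensities were converted to log2 and centred on each array's median. limma 3.58.1 (R 4.3.3; lmFit and eBayes) was fitted to all 6 arrays, and a comparison was tested at a probe where all 4 of its arrays had a value. P-values were adjusted by Benjamini-Hochberg over all probes tested, with a threshold of 0.05. The residual degrees of freedom were 3 and the prior added 5.77. Intervals are 95% intervals from the same fit.

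The members and gene lists were chosen with earlier results of these data known. All members are named. Of the list of other genes, up to 6 called probes in each direction and the SRP receptor genes are named. The fit was also run on simulated data with the same spread in all groups. The spread of these arrays differed between groups, and nothing above rests on that run. Alternatives were the centring, a filter on dim probes, an offset before log2, the probes and arrays entering the fit, the variance model and a replicate block. Plots were drawn with matplotlib 3.10.9.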

Additional observations from a re-analysis of the deposited data

How the results depend on the processing

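Srp54a kept a positive difference for MVH minus IgG (2.72 to 3.86) and for MVH minus total RNA (1.97 to 2.89) in all 16 alternatives. As a description, since the set was chosen from it, the number of SRP probes called for MVH minus IgG was 1, with 0 when only the 4 arrays compared were fitted and 0 to 1 when 1 array was left out. For MVH minus total RNA it was 0, with 1 when the dimmest 25% of probes were dropped, 1 with an offset of 4 and 1 with a variance trend. For IgG minus total RNA it was 0 in every alternative. Of the 51 probes of the other genes, 7 were called for MVH minus IgG (7.97% of all probes), against 2 with no centring (3.81% of all), 15 when the dimmest 25% of probes were dropped (17.8%), 15 with an offset (14.2%), 16 with a variance trend (14.6%), 0 with only the 4 arrays compared (0%), and 0 to 5 when 1 array was left out. The median of all probes for MVH minus IgG was 0.34 with no centring, against 0.07. With 1 total RNA array left out, the MVH minus IgG differences stay the same by design, and only the estimate of the error changes. The cause of the other changes was not tested. Over all probes the calls for MVH minus IgG were 824 higher and 895 lower, against 702 and 121 with no centring and 0 with only the 4 arrays compared.

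The labels number the arrays of each group 1 and 2 but do not say that a number marks a shared animal or day. Deviations of equally numbered arrays correlated at 0.157, 0.156 and 0.101. With the replicate number as a block, 1 SRP probe was called for MVH minus IgG and 0 in the other comparisons, and over all probes 2263 were called for MVH minus IgG and 150 for IgG minus total RNA, against 1719 and 2 without it. With 2 arrays per group, depth of replication limits what a missed threshold can tell.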
